A study of Mus musculus with 6 samples.

Results

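DNA damage signalling and repair genes were compared between mouse macrophages grown with CSF1 (M-CSF) and with CSF2 (GM-CSF). The set was chosen by name, with earlier results of these data known. It held 43 genes that sense DNA damage, relay the signal or carry out repair, and 42 of them had a probe set of their own among the 19938 genes tested. Xrcc2 was not analysed here. RNA came from marrow of C57BL/6 mice kept for 7 days with CSF1, giving M(CSF1) cells, or with CSF2, giving M(CSF2) cells, and was read on Affymetrix Mouse Gene 1.0 ST arrays, 3 per group. The labels call the 3 samples of a group biological replicates. The labels do not name the mice behind each sample, and p-values below therefore reflect sample-to-sample spread that may be technical. Cells were sorted before lysis. The sorting marker, and the age of the mice, are not given in the sources used here.

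Cells meet DNA damage with a small set of connected pathways. Breaks are sensed by the MRN complex and by the kinases ATM and ATR, which pass the signal to CHK2 and CHK1 and so hold the cell cycle. Homologous recombination repairs breaks by copying a sister chromatid, and the Fanconi anaemia pathway repairs crosslinks. Both work mainly in S and G2 phase, whereas end joining and nucleotide excision repair work throughout the cycle. CSF1 is the main mitogen of macrophages, and many recombination genes are textbook targets of the E2F factors that drive entry into S phase.

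The repair genes were lower in M(CSF2). Of the 42 measured, 32 fell, 1 rose and 9 did not pass the threshold, an adjusted p under 0.05. The 32 include Brca2, Palb2, Fancb and Fancm, whose signals lay at the level of silent olfactory receptor genes on every array. Over all genes tested, 27.5% passed, 15.6% as lower and 11.9% as higher in M(CSF2). The median difference of the 42 was -0.54 on the log2 scale, against 0.04 for all genes. The poly(ADP-ribose) polymerase Parp1, a sensor of strand breaks, fell most, by 2.38. The base excision glycosylase Neil3, the recombination motor Rad54l, the Fanconi helicase Brip1 and the Fanconi protein Fancd2 followed. The nuclease subunit Ercc1 rose by 1.10 and was the exception.

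All 3 M(CSF2) values lay below all 3 M(CSF1) values in 32 of the 42 genes, beside 19.8% of all genes. These were the 32 called lower. With 3 arrays per group a call nearly implies this pattern, so it adds no separate support. Falls ran from 0.22 to 2.38 on the log2 scale, and the fitted fall was at least 1 log2 unit in 9 of the 32. Of these 9, Chek1 and Fancd2 lay on all 3 M(CSF2) arrays at the level of silent olfactory receptor genes. There a fitted fall is no bound, and the bound for Chek1 lies under 2-fold. Bard1, Brip1 and Neil3 had 2 of 3 M(CSF2) arrays at that level, and Exo1 had 1. Background limits their fitted falls too. In bulk RNA, fewer cells of a type and less RNA per cell cannot be told apart.

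**Figure D1:**
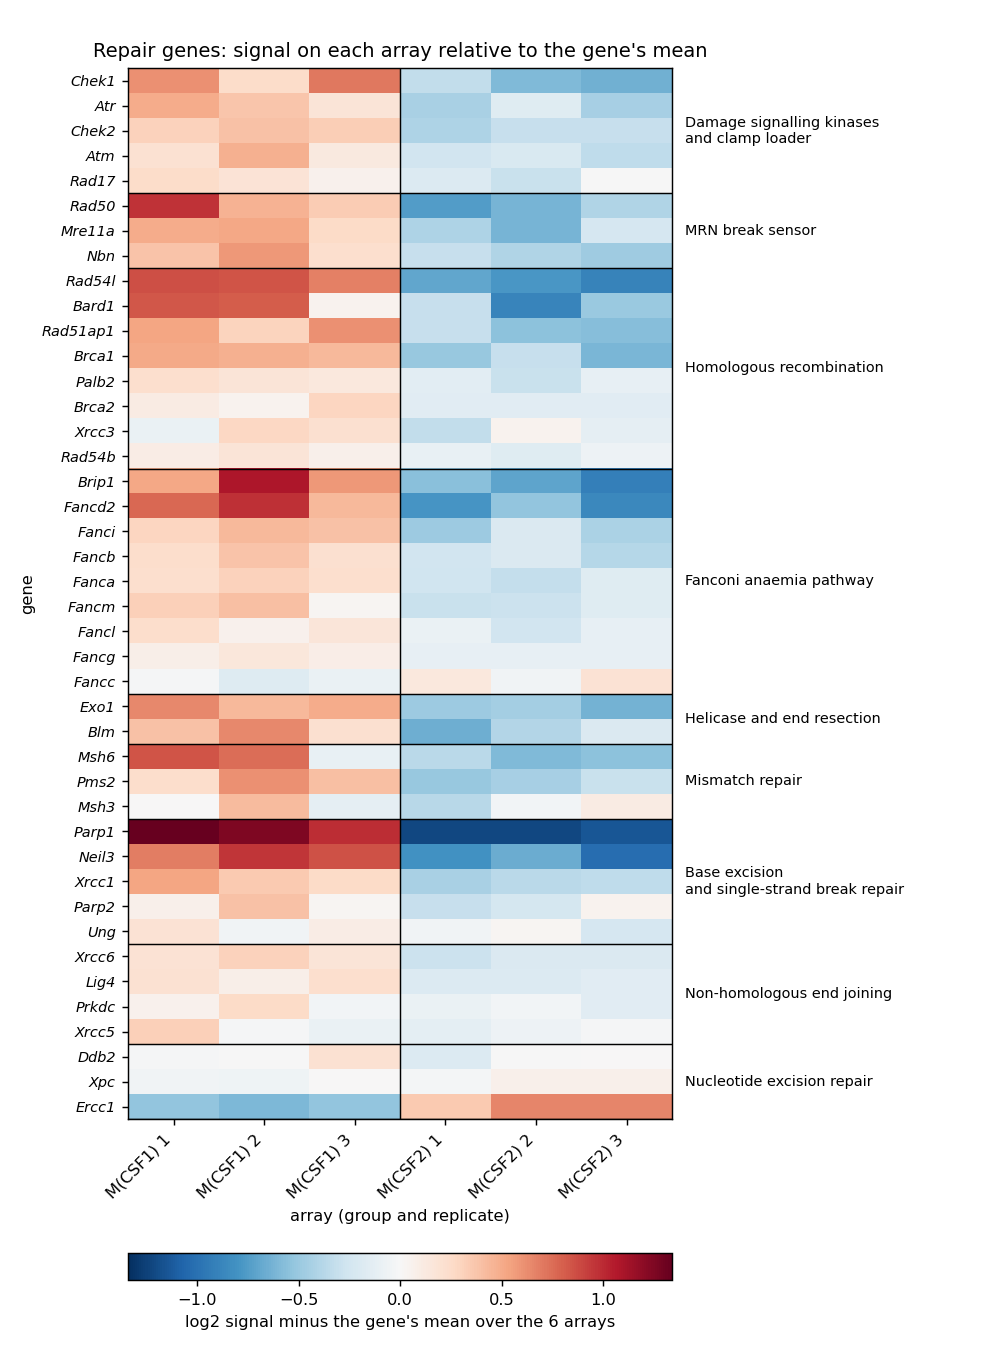
Log2 signal of the 42 measured repair genes (rows, grouped by pathway) on each of the 6 arrays (columns), as the deviation from the gene's mean over the arrays; red is above and blue below that mean. The M(CSF1) columns are mostly red and the M(CSF2) columns mostly blue, deepest for Parp1, and Ercc1 at the bottom runs the other way.

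Promoter sequences of the set were searched for short motifs, and their part in the falls was not tested. RefSeq windows of 300 bases on GRCm38.p6, from 250 before to 50 after the start, were matched by symbol for 34 of the 43 genes. Those not matched were Exo1, Ddb2, Prkdc, Fancd2, Rad54b, Xrcc2, Rad50, Xpc and Nbn. Each window was searched on both strands for the E2F core, taken as TTCCCGC, as the variant TTGGCGC, as the variant TTCGCGC or as the variant TTGCCGC, and for the CHR element of late cell cycle genes, taken as TTTGAA or as its variant TTCGAA. Shown are the 3 largest falls with an E2F core (Brip1, Bard1 and Chek1), the recombination gene Rad51ap1 with a core just after its start, Parp1 as the largest fall, and Ercc1 as the gene that rose. Sequences are from RefSeq, 5′ to 3′ on the gene's strand. Capitals mark an E2F core or CHR element, in either orientation.
Brip1 (chr11:86201144-86201443, minus strand): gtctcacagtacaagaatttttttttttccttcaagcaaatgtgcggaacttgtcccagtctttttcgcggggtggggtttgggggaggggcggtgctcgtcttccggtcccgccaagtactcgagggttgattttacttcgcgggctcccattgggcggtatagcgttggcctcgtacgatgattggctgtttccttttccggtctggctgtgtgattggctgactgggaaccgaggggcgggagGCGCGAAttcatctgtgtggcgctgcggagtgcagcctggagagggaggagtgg
Bard1 (chr1:71102923-71103222, minus strand): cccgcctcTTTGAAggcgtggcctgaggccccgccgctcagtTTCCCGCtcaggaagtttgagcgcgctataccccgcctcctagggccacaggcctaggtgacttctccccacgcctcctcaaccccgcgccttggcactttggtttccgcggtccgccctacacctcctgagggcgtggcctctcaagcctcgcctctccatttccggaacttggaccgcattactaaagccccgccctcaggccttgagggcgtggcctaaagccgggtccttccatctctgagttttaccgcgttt
Chek1 (chr9:36726609-36726908, minus strand): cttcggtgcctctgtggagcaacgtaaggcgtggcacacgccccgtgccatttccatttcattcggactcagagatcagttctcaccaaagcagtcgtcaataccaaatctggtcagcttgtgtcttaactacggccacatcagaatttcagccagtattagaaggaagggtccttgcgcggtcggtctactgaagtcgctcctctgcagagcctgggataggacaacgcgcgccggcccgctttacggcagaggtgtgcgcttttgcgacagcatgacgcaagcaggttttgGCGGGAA
Rad51ap1 (chr6:126939538-126939837, minus strand): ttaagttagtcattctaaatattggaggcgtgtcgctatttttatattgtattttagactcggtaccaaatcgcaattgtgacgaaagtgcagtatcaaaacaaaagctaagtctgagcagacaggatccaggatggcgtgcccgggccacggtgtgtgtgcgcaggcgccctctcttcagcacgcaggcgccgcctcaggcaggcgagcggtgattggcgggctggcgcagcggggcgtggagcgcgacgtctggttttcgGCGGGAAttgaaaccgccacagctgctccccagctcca
Parp1 (chr1:180568641-180568940, plus strand): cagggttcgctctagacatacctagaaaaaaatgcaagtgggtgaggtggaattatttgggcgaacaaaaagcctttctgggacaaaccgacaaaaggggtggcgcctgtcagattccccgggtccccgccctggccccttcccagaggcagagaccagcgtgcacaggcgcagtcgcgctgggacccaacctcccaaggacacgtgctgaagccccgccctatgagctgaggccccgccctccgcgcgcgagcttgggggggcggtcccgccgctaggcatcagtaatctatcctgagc
Ercc1 (chr7:19344821-19345120, plus strand): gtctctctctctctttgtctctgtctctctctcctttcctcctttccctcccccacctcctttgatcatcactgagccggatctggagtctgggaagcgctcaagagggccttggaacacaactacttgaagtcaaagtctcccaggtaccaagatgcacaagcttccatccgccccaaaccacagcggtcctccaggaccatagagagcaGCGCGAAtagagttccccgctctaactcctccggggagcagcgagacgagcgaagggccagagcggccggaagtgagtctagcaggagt

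Of the 34 genes with a window, 19 held an E2F core (55.9%), against 10.9% of all 27025 genes in the table and 14.9% of the 15013 protein-coding genes tested. Among the 27 that fell the count was 17, and among the other 7 it was 2, Ercc1 and the mismatch repair gene Msh3. The letters alone did not separate falls from the rest: Parp1, Rad54l and Neil3 had no core in this window, while Ercc1 had one 39 bases before its start. Over all protein-coding genes, 22.9% of those called lower, 14.2% of those called higher and 13.1% of those not called held a core. For comparison, 9 of 23 proliferation markers with a window held one. The median GC content was 59.8% in the repair windows, 57.7% over the protein-coding genes tested and 52.8% over the whole table.

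The CHR letters were in 3 of the 34 windows (8.82%), those of Bard1, Atr and Neil3, in 21.7% of all genes' windows and in 19.1% of those of protein-coding genes tested. Of the 23 proliferation markers, 13 held them (56.5%). The CCAAT box (CCAAT on either strand), bound by the factor NF-Y, was in 19 of 34 (55.9%), in 41.1% of all, in 41.8% of the protein-coding genes tested and in 20 of the 23 proliferation markers. None of the 22 E2F cores in the repair windows overlapped a CCAAT box. A match is a description of letters and not of binding.

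Many of these genes share a start region with a neighbour. A protein-coding gene on the opposite strand began within 1000 bases upstream for 13 of the 34 genes (38.2%), against 9.18% of the protein-coding genes tested. Of the 13 neighbours tested, 6 fell, 0 rose and 7 did not pass, beside the 15.6% of all genes called lower. That share is over 19938 genes, of which 5817 lay at background on all 6 arrays. Npat, a histone gene coactivator that starts 376 bases from Atm, fell by 0.94, and Taf9, opposite Rad17, fell by 1.23. Aimp2, which starts 162 bases from Pms2, fell by 0.82 beside 0.83 for Pms2. Ankrd49 (-0.59), D6Wsu163e (-0.74) and Mospd2 (-0.35), opposite Mre11a, Rad51ap1 and Fancb, also passed the threshold. Nbr1, which starts 152 bases from Brca1, gave 0.20 (adjusted p = 0.396) while Brca1 fell by 0.95. Dctn5 beside Palb2 gave 0.04 (adjusted p = 0.735) and Abhd13 beside Lig4 gave -0.00 (adjusted p = 0.978). The other 4 not called were 1700065D16Rik beside Atr (0.10), Zfyve21 beside Xrcc3 (0.11), Pinlyp beside Xrcc1 (0.12) and Desi1 beside Xrcc6 (-0.23).

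All 5 signalling genes fell. The checkpoint kinase Chek1, which ATR activates, had log2 signals of 3.85, 3.48 and 3.95 in M(CSF1) and 2.91, 2.64 and 2.60 in M(CSF2). The M(CSF2) values all lay under 3.38, the 95th percentile of 1027 olfactory receptor genes. These are silent in macrophages and stood here for background. So for Chek1 (difference -1.04, SE 0.14, adjusted p = 0.00096) the fold is a bound, at least 1.30-fold lower. Chek2, the kinase downstream of ATM, was clear of background, with 4.78, 4.87 and 4.81 against 4.06, 4.17 and 4.17. It was 1.61-fold lower (95% interval 1.44 to 1.80, adjusted p = 0.00021), and its groups were the tightest of the 5.

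The apical kinases were dim. Atm gave 3.63, 3.91 and 3.56 against 3.18, 3.23 and 3.09 (adjusted p = 0.0057, at least 1.25-fold lower). Atr gave 4.04, 3.92 and 3.72 against 3.11, 3.39 and 3.10 (adjusted p = 0.0028). In both genes the groups were apart, with M(CSF2) at or near background. Rad17, which loads the 9-1-1 checkpoint clamp, had 5.08, 5.03 and 4.90 against 4.65, 4.54 and 4.83 and fell by 0.33 (adjusted p = 0.040). That call ended without M(CSF1) replicate 1 (-0.29, adjusted p = 0.136) or 2 (-0.31, adjusted p = 0.130). It also ended without M(CSF2) replicate 1 (-0.31, adjusted p = 0.121) or 2 (-0.26, adjusted p = 0.117), with the replicate number as a block (adjusted p = 0.081) and with an intensity trend in the variance (adjusted p = 0.050).

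The 3 subunits of the MRN complex, which binds and trims broken ends, fell together. The ATPase Rad50 had 6.18, 5.69 and 5.56 in M(CSF1) and 4.47, 4.59 and 4.82 in M(CSF2), a 2.27-fold difference (95% interval 1.73 to 2.98, adjusted p = 0.0013). The nuclease Mre11a fell from 5.89 ± 0.14 to 5.05 ± 0.19 (SD, n = 3 each here and below, adjusted p = 0.0012). Nbn, which recruits ATM, fell from 5.24 ± 0.18 to 4.44 ± 0.09 (adjusted p = 0.00083). A second, dimmer probe set of Nbn did not show this, with means of 4.43 and 4.61 (difference 0.18, adjusted p = 0.293 over all probe sets), so the fall of Nbn rests on 1 of its 2 probe sets.

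**Figure D2:**
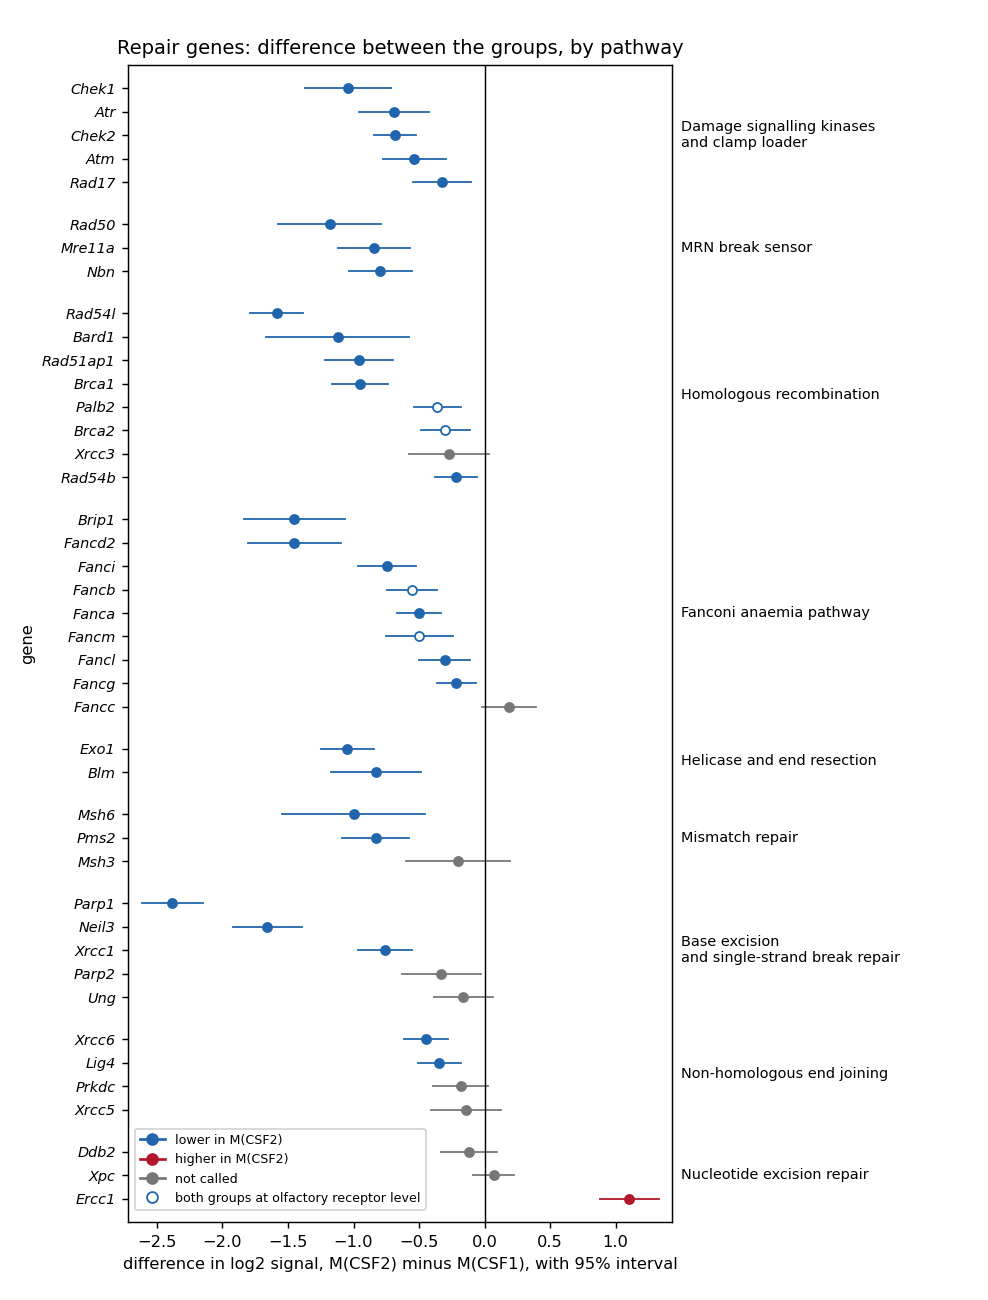
Difference in log2 signal, M(CSF2) minus M(CSF1), for each of the 42 measured repair genes (points) with its 95% interval from the limma fit (lines), by pathway; open points are genes with all 6 values at or under the olfactory receptor level. Most genes lie left of 0, from -2.38 for Parp1, nucleotide excision and end joining genes lie nearer 0, and Ercc1 lies at 1.10.

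Homologous recombination genes fell in 7 of 8 measured cases. Rad54l, a motor protein of strand invasion, had 5.50, 5.47 and 5.30 against 3.93, 3.85 and 3.73. These values are far apart for their spread, a difference of -1.59 (95% interval -1.79 to -1.38, adjusted p = 8.7e-06). Its paralog Rad54b differed by 0.22 from 3.49 ± 0.06 to 3.27 ± 0.05, with M(CSF2) at background. It was at least 1.08-fold lower. The adjusted p of Rad54b was 0.049 and rose above 0.05 in each of the 6 fits that left out an array (0.0514 to 0.148), with the replicate block (0.144), with robust variances (0.0572) and among genes above the olfactory receptor level (0.056). The 95% intervals of the 2 paralogs, -1.79 to -1.38 for Rad54l and -0.38 to -0.06 for Rad54b, do not overlap. The difference between them was not tested.

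Brca1 and Bard1 encode the partners in a ubiquitin ligase that steers breaks to recombination. Brca1 had 4.41, 4.37 and 4.34 against 3.39, 3.59 and 3.28 and fell by 0.95 (SE 0.09, adjusted p = 0.00015). Bard1 had 4.55, 4.52 and 3.76 against 3.41, 2.84 and 3.23, with M(CSF1) replicate 3 well below the other 2. Of its 3 M(CSF2) arrays, 2 were at background. Bard1 fell by 1.12 (SE 0.23, adjusted p = 0.0086), and the call ended without M(CSF1) replicate 1 (-0.99, adjusted p = 0.053) or 2 (adjusted p = 0.0543). Its other probe sets gave -0.63 (adjusted p = 0.0197 over all probe sets) and -0.13 (adjusted p = 0.379).

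Rad51ap1, which promotes strand invasion, had 3.61, 3.38 and 3.70 against 2.77, 2.53 and 2.51. Its M(CSF2) arrays were all at background, so it was at least 1.13-fold lower (difference -0.96, adjusted p = 0.00043). Brca2, a mediator of recombination, and Palb2, which links it to BRCA1, lay at background on all 6 arrays. They gave -0.30 (adjusted p = 0.026) and -0.36 (adjusted p = 0.0092), and no fold is given for either. The Brca2 call ended without M(CSF1) replicate 1 (-0.32, adjusted p = 0.0578), with any of the 3 M(CSF2) arrays left out (adjusted p = 0.0663 to 0.0738) and with the replicate block (adjusted p = 0.061). The recombination gene Xrcc3 did not pass, at -0.27 (95% interval -0.58 to 0.03, adjusted p = 0.180), and its groups overlapped.

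The Fanconi anaemia pathway repairs crosslinks between DNA strands. In it, 8 of 9 genes fell. Fancd2 and Fanci encode the pair that is ubiquitinated at a crosslink. Fancd2 had 4.63, 4.83 and 4.29 against 3.06, 3.33 and 2.997, at least 2.30-fold lower (difference -1.45, SE 0.15, adjusted p = 0.00025). Fanci had 3.57, 3.71 and 3.66 against 2.79, 3.08 and 2.85, at least 1.20-fold lower (difference -0.74, adjusted p = 0.00069). In both, every M(CSF2) array was at background.

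Brip1, the helicase also called FANCJ, had 4.53, 5.10 and 4.59 against 3.46, 3.31 and 3.10. It fell by 1.45 (SE 0.16, adjusted p = 0.00038), with 2 of 3 M(CSF2) arrays at background. In the core complex that carries out the ubiquitination, Fanca fell from 4.35 ± 0.05 to 3.85 ± 0.08 (adjusted p = 0.0014). Fancb and the translocase Fancm were at background on all arrays, at -0.55 (adjusted p = 0.0017) and -0.50 (adjusted p = 0.011). The Fancm call ended without M(CSF1) replicate 1 (-0.46, adjusted p = 0.055), M(CSF1) replicate 2 (-0.42, adjusted p = 0.0503) or M(CSF2) replicate 1 (-0.48, adjusted p = 0.0552).

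Of the other core complex genes, Fancl and Fancg gave weak calls and Fancc none. The ubiquitin ligase Fancl, at background in M(CSF2), fell by 0.30 (at least 1.14-fold, adjusted p = 0.028), and the call ended with any array but M(CSF1) replicate 2 left out (differences -0.25 to -0.33, adjusted p = 0.052 to 0.0907). Fancg had 5.33, 5.40 and 5.34 against 5.14 on each of the 3 M(CSF2) arrays, identical to the last deposited digit, as held for 375 genes in that group. The call for its fall of 0.22 (adjusted p = 0.039) was lost whichever of the 6 arrays was left out (adjusted p = 0.0526 to 0.116). The call was also lost after quantile normalization (-0.18, adjusted p = 0.0877) and with the replicate block (adjusted p = 0.130). Nor did it hold with an intensity trend (adjusted p = 0.0769) or after either filter on dim genes (adjusted p = 0.0521 and 0.0508). Fancc did not pass, at 0.19 (95% interval -0.02 to 0.39, adjusted p = 0.172).

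The helicase Blm, which dissolves recombination intermediates, had 4.25, 4.50 and 4.07 against 3.20, 3.46 and 3.67 and fell by 0.83 (SE 0.15, adjusted p = 0.0038). Exo1, a nuclease of end resection and mismatch repair, had 4.59, 4.38 and 4.45 against 3.46, 3.50 and 3.31. Exo1 was 2.07-fold lower (95% interval 1.80 to 2.38, adjusted p = 7.1e-05), and 1 of its 3 M(CSF2) arrays was at background, as was 1 for Blm.

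Of the mismatch repair genes, Msh6, which recognises mispaired bases, had 5.26, 5.17 and 4.33 against 4.06, 3.83 and 3.88. M(CSF1) replicate 3 stood far below the other two, and the difference of -0.999 (SE 0.23, adjusted p = 0.014) passed with that array left out (-1.30, adjusted p = 0.00036). Leaving out any of the other 5 arrays ended the call, and the difference then ran from -0.83 to -1.07 (adjusted p = 0.0528 to 0.0803). The endonuclease subunit Pms2 fell by 0.83, from 5.12 ± 0.19 to 4.29 ± 0.11 (adjusted p = 0.00087). Msh3, which recognises larger loops, gave -0.20 (95% interval -0.60 to 0.19, adjusted p = 0.443).

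Base excision and strand break genes held the largest fall. Parp1 had 8.99, 8.90 and 8.63 in M(CSF1) and 6.43, 6.43 and 6.51 in M(CSF2), a 5.21-fold difference (95% interval 4.43 to 6.14, adjusted p = 2.8e-06). Both groups were far above background and more than 2 log2 units apart at every pair of arrays. Its paralog Parp2 gave 5.96 ± 0.20 and 5.63 ± 0.18, a difference of -0.33 (95% interval -0.63 to -0.03) that did not pass (adjusted p = 0.108).

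Neil3, a glycosylase active at replication forks, had 4.80, 5.07 and 4.97 against 3.31, 3.46 and 3.10, with 2 of 3 M(CSF2) arrays at background. It fell by 1.66 (SE 0.11, adjusted p = 2.6e-05). The scaffold Xrcc1, which PARP1 recruits, had 6.79, 6.61 and 6.52 against 5.83, 5.90 and 5.92, a 1.69-fold fall (95% interval 1.47 to 1.95, adjusted p = 0.00041). The uracil glycosylase Ung had overlapping groups, at -0.16 (95% interval -0.39 to 0.06, adjusted p = 0.281).

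Non-homologous end joining, which rejoins ends without a template, split. Xrcc6 (Ku70) fell from 4.54 ± 0.07 to 4.09 ± 0.06 (adjusted p = 0.0024) and the ligase Lig4 from 4.39 ± 0.08 to 4.05 ± 0.01 (adjusted p = 0.0077). The kinase Prkdc gave -0.18 (95% interval -0.39 to 0.03, adjusted p = 0.194). Xrcc5 (Ku80) gave -0.14 (95% interval -0.41 to 0.12, adjusted p = 0.425), with 5 of its 6 values at background.

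Of the 3 genes of the set in nucleotide excision repair, which removes bulky lesions, 1 rose and 2 did not pass. Ercc1, partner of the XPF nuclease, had 5.43, 5.35 and 5.42 in M(CSF1) and 6.31, 6.60 and 6.60 in M(CSF2). All M(CSF2) values were higher, a 2.15-fold rise (95% interval 1.84 to 2.51, adjusted p = 9.9e-05). Its RefSeq span overlaps that of Cd3eap, which gave -0.03 (adjusted p = 0.842). The lesion sensors Xpc and Ddb2 did not pass, at 0.07 (95% interval -0.08 to 0.23) and -0.12 (95% interval -0.33 to 0.09). Other spans overlap too: Fancl with Vrk2 (-1.51), Msh6 with Fbxo11 (-0.65), Ddb2 with Acp2 (-1.34) and Fancb with Mospd2 (-0.35), all called lower, and Ung with Alkbh2 (0.57) and Fancc with Aopep (0.48), both called higher. Overlapping genes that did not pass were 1700065D16Rik (Atr, 0.10), Lrrc41 (Rad54l, 0.22), Klc1 (Xrcc3, -0.13) and Zfp276 (Fanca, 0.11). Fancd2os (Fancd2, 0.08), Polg (Fanci, -0.16) and Desi1 (Xrcc6, -0.23) did not pass either. The genes overlapping Rad54b and Msh3 were not analysed here. How far probes of such pairs share signal was not tested.

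Other repair genes, outside the set, were taken as 4 lists. Over all genes, 15.6% were called lower and 11.9% higher. Among other recombination and Fanconi genes, 10 of 23 fell and 0 rose (median -0.24). The chromatin remodeller Hells, at background on all 3 M(CSF2) arrays, was at least 3.12-fold lower. Usp1, which removes ubiquitin from FANCD2, fell by 1.22, and the single-strand binding subunit Rpa1 by 1.22. Of other damage signalling genes, 11 of 16 fell and 1 rose (median -0.69). They included the replication checkpoint genes Ticrr (-1.86), Topbp1, which activates ATR (-1.85), and Tipin (-1.71), and the break-site adaptor Trp53bp1 (-0.56). Rad9a, a subunit of the clamp that Rad17 loads, rose by 0.29. H2afx was not analysed here.

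Other excision, mismatch and end-joining genes fell in 7 of 33 cases and rose in 3 (median -0.09). The 21.2% called lower is near the 15.6% of all genes. The replicative ligase Lig1 (-2.46), the flap nuclease Fen1 (-1.13) and the lesion-binding Rad23b (-0.56) fell most. The glycosylase Neil1 (0.66), the alkylation reversal enzyme Alkbh2 (0.57) and the transcription-coupled repair gene Ercc6 (0.49) rose. Of the genes for translesion synthesis and damage tolerance, 5 of 12 fell and 0 rose, led by the polymerase Polh (-1.71), the primase-polymerase Primpol (-0.73) and the ubiquitin ligase Rad18 (-0.60). Without M(CSF1) replicate 1 that count was 3.

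**Figure D3:**
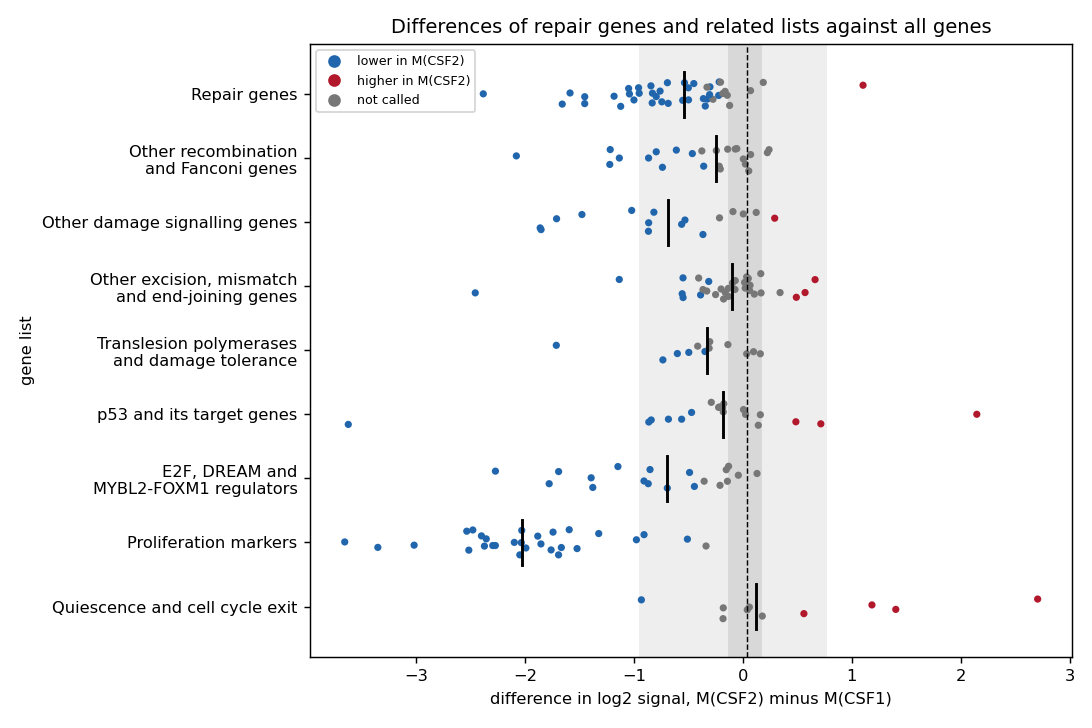
Difference in log2 signal, M(CSF2) minus M(CSF1), of every measured gene (points, coloured by call) in the repair set and 8 related lists, with each list's median as a black bar. The dark band spans percentiles 25 to 75 and the light band 5 to 95 of all 19938 genes, and the dashed line is their median of 0.04; the repair genes have a median of -0.54 and the proliferation markers one of -2.03.

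Genes that p53 activates upon damage did not share 1 direction. Of 19 measured, 6 fell and 3 rose (median -0.19), beside 15.6% of all genes called lower and 11.9% higher. The stress gene Sesn1 fell by 3.62, from 8.50, 8.21 and 8.11 to 4.74, 4.60 and 4.61, followed by Trp53inp1 (-0.86) and the cyclin Ccng1 (-0.84). The kinase Plk2 rose by 2.15 and the death receptor Fas by 0.72. Perp was called higher (0.49) with 5 of its 6 values at background. Mdm2, the p53 ligase and a classic p53 target, gave 0.14 (95% interval -0.14 to 0.42). Trp53 and Cdkn1a were not analysed here.

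Cell cycle genes moved with the repair genes. Of 29 proliferation markers, 28 fell and 0 rose (median -2.03), with the helicase subunit Mcm6 (-3.65), the cyclin Ccna2 (-3.35) and the ribonucleotide reductase subunit Rrm2 (-3.02) first and Mki67 at -1.32. That list does not hold Top2a, whose 2 probe sets disagree (-3.04 and 1.12). The probe set at 1.12 has the higher mean and so stands for Top2a under the rule used here. Of 19 regulators of the E2F, DREAM and MYBL2-FOXM1 programmes, 12 fell and 0 rose (median -0.69). Foxm1 fell by 2.27, E2f8 by 1.78, Mybl2 by 1.69 and E2f1 by 1.15. Of 10 genes of quiescence and cell cycle exit, 4 rose, Btg1 (2.71), Ccng2 (1.40), Cdkn2b (1.19) and Cdkn2a (0.56), and Cdkn2c fell by 0.93. The part of cell division in the fall of the repair genes was not tested.

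Averaged over the 42 repair genes, arrays deviated from the genes' means by 0.35, 0.37 and 0.23 in M(CSF1) and by -0.34, -0.31 and -0.31 in M(CSF2). M(CSF1) replicate 3 was the nearest to M(CSF2) of its group, and was the lowest of the 3 for 23 of the 42 genes. The same array had 0.90 for the proliferation markers, against 0.94 and 1.12 for replicates 1 and 2.

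**Figure D4:**
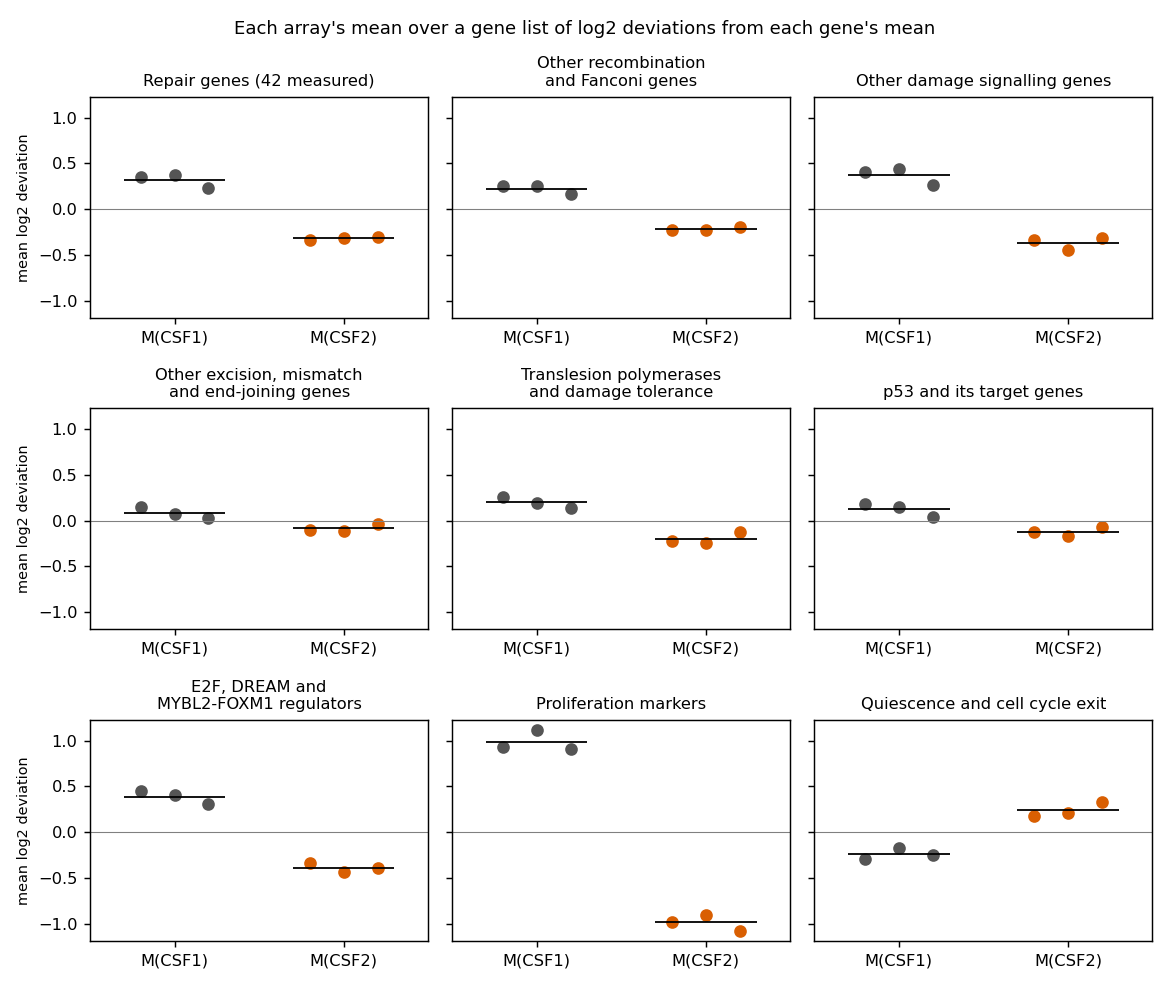
Mean over each gene list of log2 deviations from each gene's mean over the 6 arrays (vertical axis), for each array (points) by group, with the group mean as a line. M(CSF1) arrays lie above M(CSF2) arrays in every list but quiescence and cell cycle exit, where they lie below.

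The labelled cell type was checked against its markers. All 7 macrophage markers were above background on every array. Adgre1 (-1.18), Fcgr1 (-1.23) and Lyz2 (-0.48) fell, Cd68 (0.89) and Csf1r (0.60) rose, and Itgam (-0.19) and Mertk (-0.39) did not pass. Their summed log2 signal was 70.6 to 71.5 in M(CSF1) and 68.7 to 69.2 in M(CSF2). The 6 dendritic cell markers summed to 23.35 to 23.9 and 32.7 to 33.3, where Itgax (5.05) and Ccr7 (3.93) rose, Clec9a (0.27) was called higher with all 6 values at background, Xcr1 was at background throughout, and Zbtb46 (0.26) and Flt3 (-0.08) did not pass. Markers of other marrow cells moved in both directions. Summed log2 signals over 9 neutrophil markers were 34.96 to 37.05 in M(CSF1) and 42.7 to 44.7 in M(CSF2). There Mmp8 (4.44) and S100a8 (2.37) rose, and Ltf (0.31) was called higher with all 6 values at background. Elane (-0.06), Mpo (0.05), Prtn3 (0.06) and Camp (0.60) did not pass. Neither did Ngp and Ly6g, at background on all arrays. Summed signals over 8 progenitor markers were 32.8 to 33.8 and 36.2 to 36.5, where Kit (1.32) and Gata2 (2.52) rose and Cd48 (-0.96) fell. Cd34, Flt3, Mecom, Hlf and Meis1 did not pass. Of these, Cd34 and Mecom lay at background on all arrays, and Hlf and Meis1 on all 3 M(CSF1) and 2 of 3 M(CSF2) arrays. The 4 measured erythroid markers summed to 17.7 to 18.1 and 15.5 to 15.7. There the transferrin receptor Tfrc, which dividing cells also use, fell by 2.19, and Klf1 and Alas2 were at background on all arrays. The 7 measured B cell markers summed to 25.01 to 26.2 and 23.2 to 24.0, where Cd79b fell by 2.20, with Rag1, Dntt, Ebf1 and Vpreb1 at background throughout. The part of these cells in the result was not tested.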

How the data were processed

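Log2 signals of 28941 probe sets on 6 arrays (3 M(CSF1), 3 M(CSF2)) were used as deposited by the authors. The log base is read from the value range (1.48 to 13.27). MAS5 is named in the submitters' processing notes. Background correction, normalization and summarisation are not given in the sources used here, and no detection calls were used. Array medians ran from 3.91 to 4.00. Pearson correlations were 0.995 to 0.997 within a group and 0.954 to 0.959 across groups. The number of arrays limits the precision.

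Probe sets with exactly 1 gene in the platform annotation (21789) were kept, symbols were updated by Entrez identifier against RefSeq (21698 found, assembly GRCm38.p6), and the probe set with the highest mean stood for its gene, with no filter on dim genes. Differences (M(CSF2) minus M(CSF1)) were fitted across all 19938 genes by lmFit and eBayes of limma 3.58.1 (R 4.3.3), with 2-sided tests adjusted by Benjamini-Hochberg over all of them, and called at an adjusted p under 0.05. Every adjusted p in the text is from this fit or a named alternative. The background level, 3.38, is the 95th percentile of the olfactory receptor values. Where all 3 arrays of the dimmer group lay at or under it, the fold is a bound from the brighter group's mean to it. The procedure was tested on simulated data. The genes of the set and the related lists were chosen with earlier results of these data known. All members are named, and of each related list the 3 largest called falls and rises plus Trp53, Mdm2, Cdkn1a, H2afx, Trp53bp1, E2f1, E2f8 and Mki67. Other lists were mast, T and NK, and stromal markers, with 2, 0 and 2 called higher and 0, 1 and 2 called lower. The 2 mast cell and basophil markers called higher were Hdc (4.43) and Mcpt8 (0.36), the latter at background on all arrays. An item of the rule is not reported here.

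Same-numbered replicates of the groups share a number in the labels, and whether they share mice or a batch is not given. Their deviations from group means correlated at 0.00, -0.04 and -0.25, and these values do not settle whether they were paired.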

Additional observations from a re-analysis of the deposited data

How the results depend on the processing

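No repair gene changed sign in any of the 15 alternatives, and the 9 not called in the main analysis stayed so in each one that tested them. None of these took a dimmer probe set alone as its gene's value, and that of Nbn gave 0.18 (adjusted p = 0.293 over all probe sets). Of the 33 called, 25 stayed called in every alternative that tested them. Bard1, Brca2, Fancg, Fancl, Fancm, Msh6, Rad17 and Rad54b lost the call in at least 1. Counts of called repair genes ran from 25 to 30 of 42 with an array left out (24 to 29 lower, 1 to 1 higher), and counts of all called genes from 4254 to 5490 against 5488. Keeping genes above the median signal left 18 repair genes tested, of which 13 were called and 12 lower, and 8 quiescence genes tested, of which 0 were lower, since fewer genes were tested. For damage tolerance genes, counts called lower ran from 3 to 7 with an array left out. With the replicate block, 29 repair genes and 5072 of all genes were called. The median difference of all genes moved by less than 0.1 under every scaling. Signals near background limit the folds of dim genes.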

Other observations

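Neighbouring genome maintenance genes, in lists chosen after the data were examined, were looked up in the same fit. All 13 measured cohesin and SMC5/6 genes fell (median -0.996), with the ring subunits Smc3 (-1.42), Rad21 (-1.20) and Smc1a (-1.12), the cohesin regulator Pds5b (-1.35) and Smc6 (-1.32) first. Over all genes tested, 15.6% were called lower, and 5817 of those 19938 genes lay at background on all 6 arrays.

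Telomere genes split, with 6 of 11 lower and 2 higher. The telomere-binding Terf1 fell by 1.36 and the telomerase RNA-binding protein gene Dkc1 by 1.33, while Stn1, of the CST complex, rose by 0.56 and Terf2ip by 0.41. Of 9 measured genes for cytosolic DNA sensing and nucleases, 3 fell and 2 rose. Samhd1, which removes nucleotides and limits replication of viruses, fell by 1.32, and the ribonuclease H2 subunits Rnaseh2a and Rnaseh2b gave -0.69 and -0.64. The lysosomal nuclease Dnase2a rose by 0.53 and the DNA sensor Aim2 by 0.37.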
